A study of Mus musculus with 4 samples.

Results

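The tissue inhibitors of metalloproteinases (TIMPs) and the plasminogen activator system control how cells break down and remodel the matrix around them. The genes described here are the 10 with the symbols Timp1, Timp2, Timp3, Timp4, Reck, Plau, Plaur, Plat, F3 and Thbd, chosen by name from a table of 22222 genes. All 10 were in the table. RNA was sequenced from mouse keratoacanthomas, skin tumours that can regress, in 4 libraries of a different mouse each. The 2 mice at 1 week after DMBA had received the carcinogen 7,12-dimethylbenz[a]anthracene (DMBA) for 20 weeks and were then left without it for 1 week. The 2 mice on DMBA had the same 20 weeks and were collected under treatment (week 0). In every mouse RNA was taken after flow sorting on a Tomato label and on P-cadherin, and the labels call the sorted cells epithelial. The sources used here give no driver of the Tomato label, no strain and no ages.

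As background, TIMPs are secreted proteins that bind and block the matrix metalloproteinases, and Timp3 stays bound to the matrix. Reck encodes a membrane-anchored protein that restrains the same proteases and also takes part in the reception of Wnt7 ligands. The urokinase gene Plau and the tissue-type activator gene Plat encode proteases that turn plasminogen into plasmin, and Plaur encodes the receptor that holds urokinase at the cell surface. F3 encodes tissue factor, which starts coagulation, and Thbd encodes thrombomodulin, which binds thrombin and turns it towards activation of protein C. In skin, urokinase and its receptor are known from migrating keratinocytes, and thrombomodulin is made by suprabasal keratinocytes as well as by blood vessel lining.

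RefSeq (GRCm38.p6) promoter sequences were on hand for 7 of the 10 genes: Timp1, Timp2, Timp3, Timp4, Reck, Plaur and F3. The 250 bases before the start are printed for Plaur and F3, the genes among the 7 with letters of an AP-1 site, and for Timp1, whose levels followed those of Plaur most closely among the TIMPs. Capitals mark every match, on either strand, to the letters searched. These were TGANTCA for an AP-1 site and NTCAAAG for a TCF/LEF site. The core of a nuclear receptor site was searched as AGGTCA, a GC box as GGGCGG and a TATA box as TATAAA.
Timp1: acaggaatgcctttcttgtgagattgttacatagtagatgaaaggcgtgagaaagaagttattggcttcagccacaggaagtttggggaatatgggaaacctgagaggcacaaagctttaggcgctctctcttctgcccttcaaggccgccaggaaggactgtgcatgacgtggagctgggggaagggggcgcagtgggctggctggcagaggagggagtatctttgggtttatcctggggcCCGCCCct
Plaur: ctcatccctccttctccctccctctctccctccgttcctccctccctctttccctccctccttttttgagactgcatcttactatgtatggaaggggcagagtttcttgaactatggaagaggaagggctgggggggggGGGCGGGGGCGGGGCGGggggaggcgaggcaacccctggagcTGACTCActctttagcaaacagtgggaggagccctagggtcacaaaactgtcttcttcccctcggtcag
F3: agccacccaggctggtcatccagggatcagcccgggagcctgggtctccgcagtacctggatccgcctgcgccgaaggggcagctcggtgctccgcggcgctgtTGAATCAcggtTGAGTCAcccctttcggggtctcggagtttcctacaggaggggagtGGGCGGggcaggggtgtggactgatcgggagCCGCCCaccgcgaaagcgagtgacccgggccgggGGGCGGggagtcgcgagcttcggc
F3 lies on the plus strand of chromosome 3 and the stretch is chr3:121723287-121723536. That of Plaur is chr7:24462233-24462482, plus strand, and that of Timp1 is chrX:20869916-20870165, plus strand.

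AP-1 letters stood in 2 of the 7 promoters and in 6.75% of the 32851 promoters of that length in the table. In F3 they stood from 146 to 140 and from 135 to 129 bases before the start, and in Plaur from 69 to 63. GC box letters stood in 6 of the 7, all but Timp4, and in 32.7% of all promoters. In Plaur, 3 GC boxes followed each other from 111 to 95 bases before the start, with the last pair sharing a base. None of the 7 held the TCF/LEF, nuclear receptor or TATA letters, which 13.8%, 14.0% and 12.4% of all promoters held. F3 and Plaur thus share AP-1 and GC box letters, and their levels differed in pattern across the libraries, as given below. The part of such letters in the levels was not tested.

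Levels are in scaled CPM, the authors' reads per gene over a scaled library size, and libraries are given in the order replicate 1, replicate 2. The libraries held 5551937 and 7662159 reads at 1 week and 9678682 and 5635945 reads on DMBA. They did not match the epithelial label to the same degree. The summed level of 12 keratinocyte markers was 4854 and 4206 at 1 week and 57392 and 595 on DMBA, and that of 10 fibroblast markers was 51244 and 54102 at 1 week and 458 and 44150 on DMBA. Myeloid markers (10 genes) summed to 8424 and 13678 at 1 week and 15.1 and 19469 on DMBA, and endothelial markers (8 genes) to 783 and 1692 at 1 week and 7.96 and 241 on DMBA. The 8 pericyte and smooth muscle markers summed to 1335 and 1986 at 1 week and 107 and 501 on DMBA, and the 4 T cell markers to 5.16 and 16.8 at 1 week and 0.712 and 2.69 on DMBA. On-DMBA replicate 1 was highest in all 12 keratinocyte markers and lowest in all myeloid, T cell and endothelial markers, in 9 of 10 fibroblast markers and in 7 of 8 pericyte markers. No marker was at 0 in any library. In such bulk samples, fewer cells of a type and less RNA per cell cannot be told apart.

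**Figure D1:**
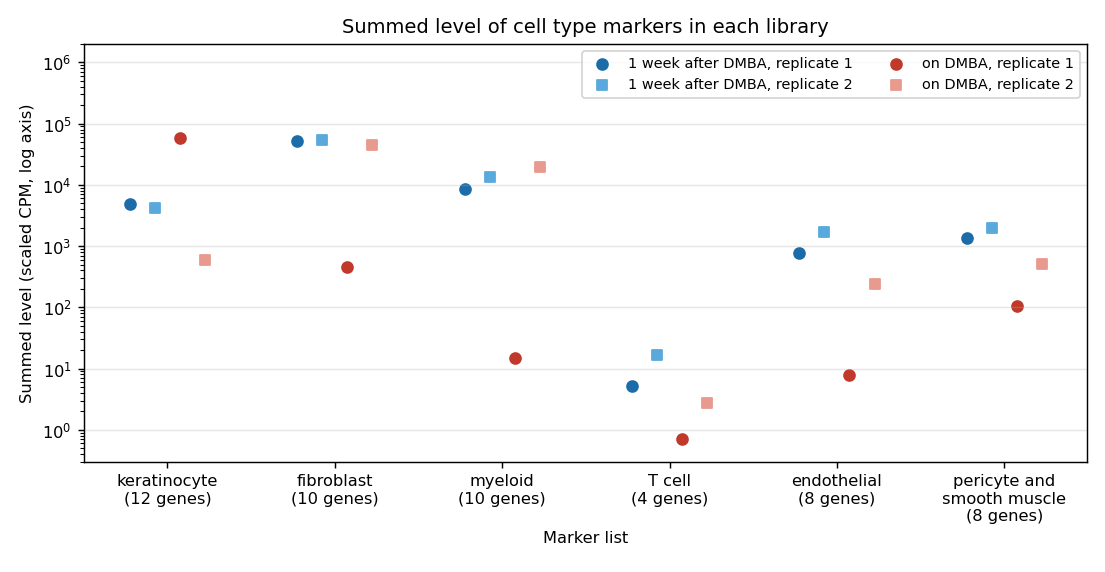
Summed level of each marker list (scaled CPM, log axis) in the 4 libraries, 1 point per library. On-DMBA replicate 1 has the highest keratinocyte sum, 57392, and the lowest sum of every other list, and on-DMBA replicate 2 has the lowest keratinocyte sum, 595.

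All 10 genes passed the filter of at least 1 scaled CPM in 2 libraries, and limma called 0 of them higher or lower at 1 week at an adjusted p under 0.05, where it called 0% of the 15419 genes tested in either direction. On reads recovered from the values, edgeR and DESeq2 also called 0 of the 10, with 0% of genes called by edgeR in either direction and 0.104% called higher and 0.0195% lower by DESeq2. At an unadjusted p under 0.05 limma had 1 of the 10, Thbd, lower (0.195% of all genes) and 0 higher (2.28% of all genes). At the same unadjusted p edgeR had 0 of the 10 in either direction (1.49% of all genes higher, 0.272% lower), and DESeq2 had Timp4 higher (2.50% of all genes) and Thbd lower (1.15%). Both 1-week libraries were above both on-DMBA libraries for Timp1, Timp4, Plaur and Plat, 4 of 10 against 14.0% of all genes, and below them for Thbd, 1 of 10 against 9.14%. Timp4 passed the filter through its 1-week values alone, so its place among the 4 and the sign of its difference were fixed in advance. The groups overlapped for Timp2, Timp3, Reck, Plau and F3. The median log2 difference, 1 week minus on DMBA, was 1.36 over the 10 genes and -0.024 over all genes tested. With the 4 libraries kept, the median over the 10 genes was 0.60 in edgeR, 0.55 in DESeq2 and 0.67 after quantile normalization, beside -0.054, -0.10 and -0.15 over all genes. On-DMBA replicate 1 held the lowest value of 7 of the 10 genes, all but Plau, F3 and Thbd, and of 37.5% of all genes tested. Leaving out that library, the median over the 10 genes was 0.060, beside 0.035 over all genes.

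**Figure D2:**
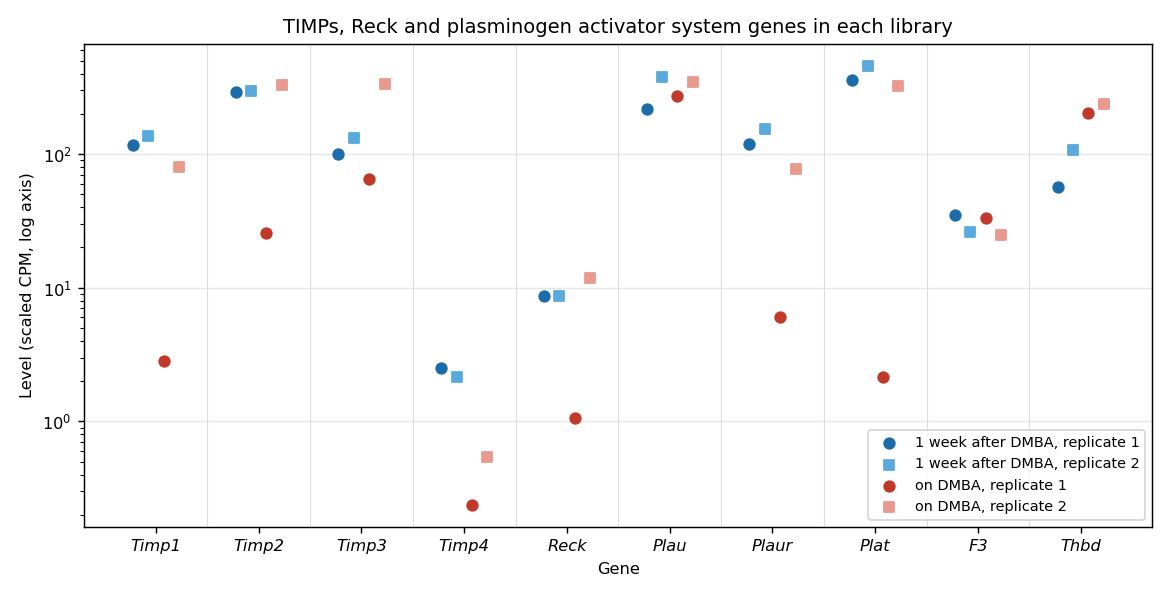
Level of each of the 10 genes (scaled CPM, log axis), 1 point per library. Thbd lies lower in both 1-week libraries (56.9 and 107) than in both on-DMBA libraries (203 and 237), while Plat spans 2.14 to 322 within the on-DMBA libraries alone.

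Among the inhibitors, Timp1, a secreted inhibitor that is induced in many wounded tissues, was at 116 and 136 at 1 week and 2.85 and 80.0 on DMBA (means 126 ± 14.3 and 41.4 ± 54.6, SD, n = 2 each). Both 1-week libraries were above both on-DMBA libraries, and on-DMBA replicate 2 was far closer to them than to on-DMBA replicate 1. The 1-week mean was 44.3 times the value of on-DMBA replicate 1 and 1.58 times that of replicate 2. The log2 difference was 2.94 (95% interval -0.85 to 6.73; limma adjusted p = 0.9997). It was 0.65 without on-DMBA replicate 1 (adjusted p = 1.0) and 5.24 without replicate 2 (adjusted p = 1.04e-20), so the library kept decided both size and call. On recovered reads edgeR put the Timp1 difference at 1.61 and DESeq2 at 1.56, all 4 libraries kept. With on-DMBA replicate 2 left out, limma called 14.3% of all genes higher. The fibroblast, myeloid, T cell, endothelial, and pericyte and smooth muscle marker sums were all lowest in on-DMBA replicate 1 too. Their part in the Timp1 difference was not tested.

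Timp2, which inhibits metalloproteinases and also helps Mmp14 to activate Mmp2, was at 293 and 296 at 1 week and 25.8 and 326 on DMBA. The 1-week libraries were nearly equal and lay between the on-DMBA libraries. The log2 difference was 1.67 (interval -1.44 to 4.78; limma adjusted p = 0.9997), -0.15 without on-DMBA replicate 1 and 3.49 without replicate 2, where it passed (adjusted p = 3.90e-08), and it was 0.75 in edgeR with all 4 libraries. Reck followed the same order at a far lower level, 8.60 and 8.70 at 1 week and 1.07 and 11.8 on DMBA, the lowest from 9 reads. Its log2 difference was 1.06 (interval -1.79 to 3.90), -0.43 without on-DMBA replicate 1 and 2.54 without replicate 2 (limma adjusted p = 0.00242), and it was 0.44 in edgeR with all 4 libraries.

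The matrix-bound inhibitor Timp3 was at 100.2 and 131 at 1 week and 65.1 and 332 on DMBA. Here too the 1-week libraries lay between the on-DMBA libraries, and on-DMBA replicate 2 was the highest. Timp3 had a log2 difference of -0.36 (interval -2.58 to 1.86; limma adjusted p = 0.9997) and turned to 0.81 without on-DMBA replicate 2. When on-DMBA replicate 1 was left out, it was -1.53 in limma and -1.62 in edgeR on recovered reads. That edgeR run was chosen after seeing the data, and both runs hold 1 on-DMBA library.

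Timp4, the least abundant TIMP, was at 2.50 and 2.14 at 1 week (16 and 15 reads) and 0.237 and 0.538 on DMBA (2 and 3 reads). Both on-DMBA values were at or under the floor of 3 reads, and both 1-week values were above them. Since Timp4 passed the filter through its 1-week values alone, this order was fixed in advance. Pooled over the libraries of a group, the level at 1 week was 6.47 times that on DMBA, with an exact 95% counting interval of 2.49 to 21.3 that leaves out the spread between mice. The log2 difference on the scale used for testing was 1.69 (interval -0.12 to 3.50; limma adjusted p = 0.9997), and it was 2.61 in edgeR.

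Each of Timp1, Timp3 and Timp4 lies inside a synapsin gene on the opposite strand in GENCODE (GRCm38): Timp1 in Syn1, Timp3 in Syn3 and Timp4 in Syn2. Exons overlapped for Timp3 with Syn3 and for Timp4 with Syn2, and did not for Timp1 with Syn1. The kit was stranded, per the labels' protocols. No source used here gives the strand setting of the authors' counting, so reads in the shared exons cannot be assigned with certainty. Syn2 was at 5.47 and 3.28 at 1 week and 1.90 and 2.51 on DMBA, above Timp4 in every library. Syn3 was at 13.3 and 3.71 at 1 week and 4.16 and 6.64 on DMBA, below Timp3 in every library.

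On the protease side, Plau was among the most even of the genes, at 216 and 377 at 1 week and 273 and 345 on DMBA (means 296 ± 114 and 309 ± 50.6, SD, n = 2 each). The 1-week libraries were the lowest and the highest of the 4, and the groups overlapped. The log2 difference was -0.11 (interval -1.64 to 1.43; limma adjusted p = 0.9997), and the interval does not exclude a 2-fold change in either direction. After quantile normalization it was 0.044, and it was 0.061 with on-DMBA replicate 2 left out and 0.30 with 1-week replicate 1 left out.

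The urokinase receptor gene Plaur was less even across the libraries than Plau. It was at 118 and 154 at 1 week and 6.06 and 77.7 on DMBA, both 1-week libraries above both on-DMBA libraries. The 1-week mean was 22.5 times the level in on-DMBA replicate 1 and 1.75 times that in replicate 2. Plaur had a log2 difference of 2.58 (interval -0.47 to 5.64; limma adjusted p = 0.9997), 0.79 without on-DMBA replicate 1 and 4.37 without replicate 2, where it passed (adjusted p = 2.65e-14). In edgeR with all 4 libraries it was 1.70.

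Plat, the tissue-type activator, had the widest range of the 10, a log2 span of 7.44 over the libraries. It was at 357 and 456 at 1 week and 2.14 and 322 on DMBA, where the lowest value came from 18 reads. The 1-week libraries were the highest, and on-DMBA replicate 2 was far closer to them than to on-DMBA replicate 1. Its log2 difference was 3.79 (interval -1.77 to 9.36; limma adjusted p = 0.9997), 0.32 without on-DMBA replicate 1 and 7.26 without replicate 2, where it passed (adjusted p = 2.01e-36). With all 4 libraries it was far smaller on recovered reads, 1.32 in edgeR and 1.27 in DESeq2. The fibroblast marker sum had the same order of libraries as Plat, 51244 and 54102 at 1 week and 458 and 44150 on DMBA. Of the 10 fibroblast markers, though, 4 were highest in on-DMBA replicate 2. The endothelial sum, 783 and 1692 at 1 week and 7.96 and 241 on DMBA, also had the order of Plat, as had the pericyte and smooth muscle sum and the T cell sum. The myeloid sum was also lowest in on-DMBA replicate 1, at 15.1, but highest in on-DMBA replicate 2, at 19469. The part of any of these cell types in the Plat levels was not tested.

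**Figure D3:**
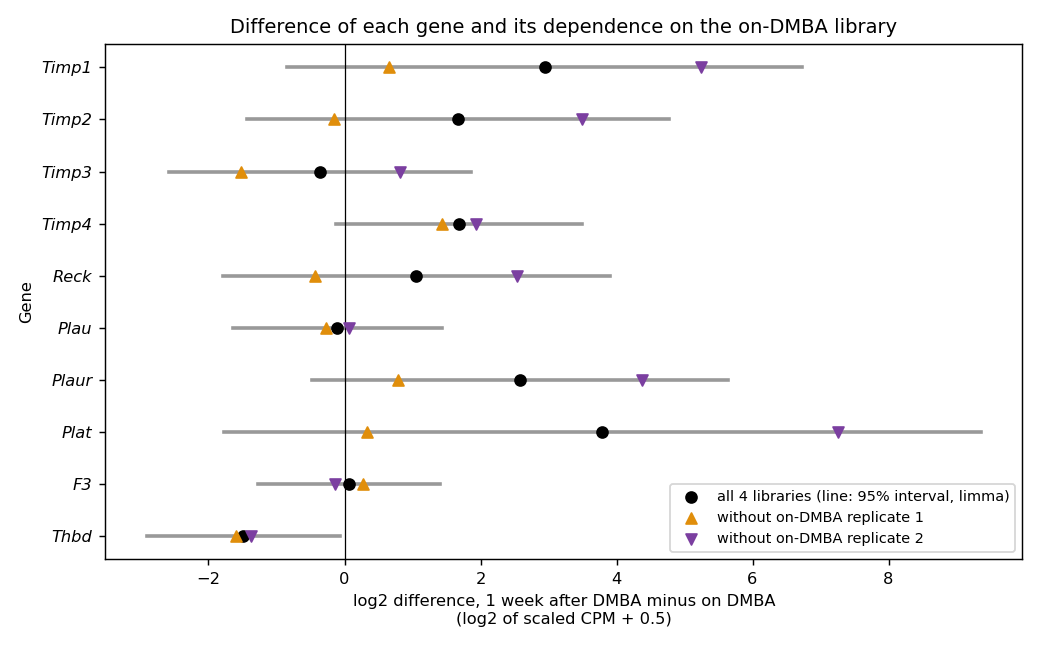
Log2 difference of each gene, 1 week after DMBA minus on DMBA, with all 4 libraries (points, 95% intervals from limma) and without each on-DMBA library (triangles). Timp2, Timp3 and Reck stand on opposite sides of 0 with one or the other on-DMBA library left out, as do Plau and F3 close to 0, and Thbd stays between -1.60 and -1.38.

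In the coagulation branch, F3 was even across the libraries, at 34.9 and 26.1 at 1 week and 33.1 and 24.9 on DMBA. Its log2 difference was 0.068 (interval -1.27 to 1.41; limma adjusted p = 0.9997), with a span of 0.47 over the 4 libraries, the smallest of the 10 genes. Its direction turned, to -0.13, when on-DMBA replicate 2 was left out, and to -0.14 when 1-week replicate 1 was.

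Thbd was at 56.9 and 107 at 1 week and 203 and 237 on DMBA (means 81.9 ± 35.4 and 220.1 ± 23.8, SD, n = 2 each), the lone gene of the 10 with both 1-week libraries below both on-DMBA libraries. The 1-week mean was 0.372 times the on-DMBA mean. The on-DMBA libraries differed by 0.22 in log2 for Thbd, against 0.33 for Plau, 0.40 for F3 and 6.93 for Plat. The 1-week libraries differed by 0.91 in log2 for Thbd, the most of the 10 genes. For Thbd the log2 difference was -1.49 (interval -2.91 to -0.065; unadjusted p = 0.0432, the 324th smallest of 15419, limma adjusted p = 0.9997). It was -1.60 without on-DMBA replicate 1 (limma adjusted p = 0.128) and -1.38 without replicate 2 (limma adjusted p = 0.0638). The 1-week libraries moved it further, to -1.03 without 1-week replicate 1 and to -1.94 without 1-week replicate 2 (limma adjusted p = 0.9999 for both). It was negative in every alternative run, including edgeR without on-DMBA replicate 1, a run chosen after seeing the data. Without on-DMBA replicate 1 it was -1.65 in edgeR, where it passed (adjusted p = 0.00148; 2.52% of genes were called lower there), together with Timp3 and no other of the 10. The endothelial markers, 8 of 8, had each 1-week library above each on-DMBA library, opposite to Thbd. The pericyte and smooth muscle markers, 8 of 8, had the same order, as had 14.0% of all genes. The keratinocyte sums of the on-DMBA libraries, 57392 and 595, lay on either side of the 1-week sums. Their part in the Thbd levels was not tested.

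Per kilobase of summed exon length, which allows levels of different genes to be set side by side, Plau was the highest of the 10 in on-DMBA replicate 1, at 115 scaled CPM per kb, followed by Thbd at 54.6. In that library Timp1 was at 3.21 and Plat at 0.342 scaled CPM per kb. In the other 3 libraries Plau and Timp1 took the first places, with Timp1 at 131 and 154 at 1 week and 90.1 in on-DMBA replicate 2, and Plau at 91.1 and 159 at 1 week and 146 in on-DMBA replicate 2. Reck and Timp4 had the lowest levels per kb in all 4. Per kilobase of coding length Plau and Thbd were again first in on-DMBA replicate 1, while Timp2 was first in both 1-week libraries and Timp3 in on-DMBA replicate 2.

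Profiles of log2 levels, each with its mean over the 4 libraries taken off, were closest for Timp2 and Reck (Euclidean distance 0.77) and for Timp1 and Plaur (0.81), and farthest apart for Plat and Thbd (7.11). The 3 genes of widest range were set against all genes tested. The profiles most like Plat were those of Clec4d, Cd72 and Mefv (distances 0.18, 0.19 and 0.21), with 89 genes within a distance of 1. For Timp1 they were Aebp1, Hdc and Mgl2 (0.14, 0.18 and 0.21), with 190 genes within 1, and for Plaur they were Pde3a, Ebf3 and Olfm1 (0.17, 0.21 and 0.24), with 286 within 1. With 4 libraries, and on-DMBA replicate 1 far from the others, these distances are descriptions. In that library Clec4d and Hdc were at 0 and Cd72 and Mefv at 0.119 (1 read), under the floor of 3 reads, and Mgl2 and Ebf3 were at it (0.356). The distances of these 6 genes thus rest largely on the 0.5 added before the log.

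The proteases that TIMPs and Reck restrain were set beside them. Of 25 listed metalloproteinase genes 24 were tested, limma called 0 in either direction, and in 15 both 1-week libraries stood above both on-DMBA libraries while in 0 both stood below (14.0% and 9.14% of all genes). Their median log2 difference was 1.90, with 1.13 in edgeR, and 0.44 without on-DMBA replicate 1. The gelatinase gene Mmp9 was at 576 and 612 at 1 week and 10.3 and 24.8 on DMBA, a log2 difference of 5.17, and DESeq2 called it (adjusted p = 1.03e-05) and no other of the list. Mmp9 and the macrophage elastase gene Mmp12, the stromelysin gene Mmp10 and the membrane protease gene Adam12 had the smallest p of the list. Mmp10 was at 1037 and 394 at 1 week and 22.7 and 72.7 on DMBA, and Mmp12 at 201 and 1038 at 1 week and 5.70 and 41.6 on DMBA. Adam12 was at 316 and 207 at 1 week and 41.2 and 38.8 on DMBA. With on-DMBA replicate 1 left out, limma called 6 of the list, all higher: Mmp9, Mmp10, Mmp11, Mmp12, Mmp13 and Adam12, where 2.35% of all genes were called higher. The gelatinase gene Mmp2 was at 609.99 and 622 at 1 week and 6.53 and 286 on DMBA, and its membrane-bound activator Mmp14 was at 1068 and 1043 at 1 week and 82.9 and 705 on DMBA.

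Ratios were taken within a library, from scaled CPM + 0.5. The log2 ratio of Timp1 to Mmp9 was -2.31 and -2.16 at 1 week and -1.69 and 1.67 on DMBA, so Timp1 was lower relative to Mmp9 in both 1-week libraries. Timp2 to Mmp14 was at -1.87 and -1.82 at 1 week and -1.67 and -1.11 on DMBA, a smaller difference in the same direction. Plat to Plau was at 0.73 and 0.28 at 1 week and -6.70 and -0.10 on DMBA. The ratio of F3 to Tfpi, its inhibitor, overlapped between the groups, at -0.20 and -1.74 at 1 week and 5.51 and -1.40 on DMBA. The 5.51 rests on 2 reads of Tfpi, under the floor of 3, so its size is set by the 0.5 added, and the difference between the group means was -3.58 with 0.1 added and -2.66 with 1 added. The smallest two-sided p that an exact permutation test of 2 against 2 allows is 0.333, so the ratios were not tested.

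**Figure D4:**
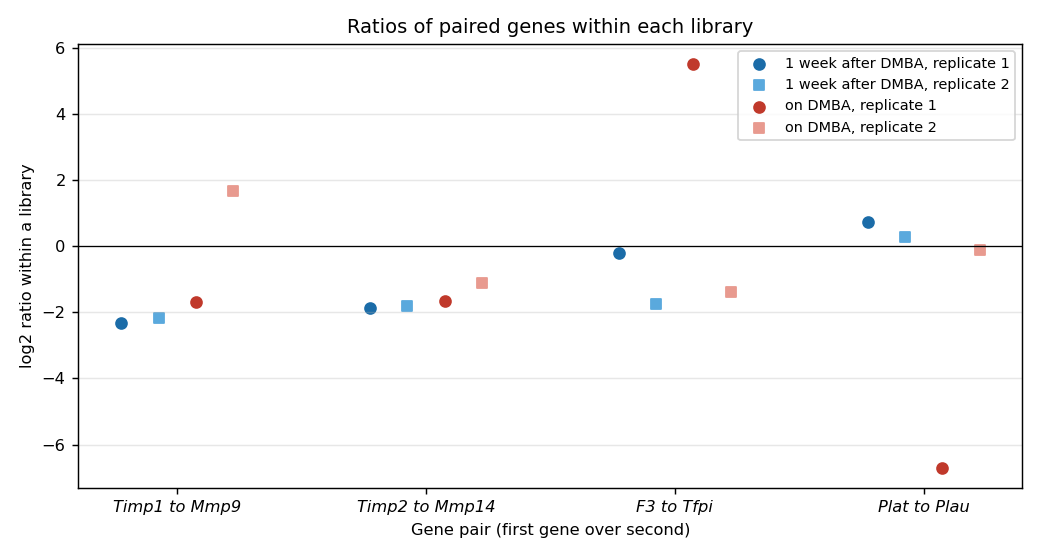
Log2 ratio of paired genes within each library, 1 point per library, from scaled CPM + 0.5. Timp1 to Mmp9 and Timp2 to Mmp14 lie lower in both 1-week libraries, and F3 to Tfpi and Plat to Plau are set apart in on-DMBA replicate 1, at 5.51 (from 2 Tfpi reads) and -6.70.

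Of 18 listed partners of the plasminogen system 12 were tested and limma called 0, with a median log2 difference of 0.45, which was -0.076 in edgeR. The groups were set apart upwards for 0 genes and downwards for 1, where 14.0% and 9.14% of all genes were, so the count was near or under those shares. The 1 gene was Vldlr, a receptor that clears protease and inhibitor complexes, at 7.50 and 5.71 at 1 week and 86.9 and 16.5 on DMBA. Lrp1, a receptor that clears the same complexes, was at 2066 and 2024 at 1 week and 583 and 2281 on DMBA, and these groups overlapped. Serpini1, which encodes the Plat inhibitor neuroserpin, was at 1.72 and 7.27 at 1 week and 0.475 and 2.87 on DMBA, and Mrc2, a collagen receptor that associates with the urokinase receptor, was at 241 and 253 at 1 week and 64.4 and 331 on DMBA. The inhibitor gene Serpinb2 had nearly the same pair of values in both groups, at 43.6 and 24.7 at 1 week and 43.6 and 23.5 on DMBA. Anxa2 and S100a10, whose products form a surface docking site for plasminogen, were at 604 and 731 and at 161 and 167 at 1 week, and at 1217 and 339 and at 245 and 99.97 on DMBA. Plasminogen itself, Plg, was at 0.156 (1 read) in 1-week replicate 1 and at 0 in the other libraries. Without on-DMBA replicate 1 the list median was -0.15 and limma called Vtn alone, lower (log2 difference -2.94; 0.999% of all genes were called lower there). Without on-DMBA replicate 2 limma called it higher (3.81), and with all libraries it was at 0.43. Vtn encodes vitronectin, an adhesive matrix protein, and was named after its value was seen. Its level was 6.88 and 9.70 at 1 week and 0.119 (1 read) and 66.2 on DMBA.

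Of 16 listed partners of tissue factor, thrombin and protein C 12 were tested and limma called 0. Their median log2 difference was 1.66, with 1.16 in edgeR, and 0.18 without on-DMBA replicate 1. The groups were set apart upwards for 6 genes and downwards for 0 (14.0% and 9.14% of all genes). The coagulation factor genes F7 and F10, whose products act with tissue factor, were at 11.9 and 41.6 and at 13.8 and 38.4 at 1 week, and at 0.237 and 3.41 and at 1.42 and 3.23 on DMBA. The 0.237 of F7 came from 2 reads, under the floor of 3. Procr, the endothelial protein C receptor gene, whose product works beside thrombomodulin, was at 115 and 101 at 1 week and 50.1 and 28.5 on DMBA. Its direction was thus opposite to that of Thbd. F2rl1, a protease-activated receptor gene, was at 31.9 and 30.2 at 1 week and 11.0 and 11.1 on DMBA, and the thrombin receptor gene F2r was at 106 and 94.0 at 1 week and 10.7 and 91.0 on DMBA. Tfpi was at 40.0 and 88.3 at 1 week and 0.237 and 66.6 on DMBA. With on-DMBA replicate 1 left out limma called F7, F10 and Procr higher (2.35% of all genes were called higher there) and F13a1 lower (0.999%). F13a1, a coagulation factor gene named after its value was seen, was at 418 and 518 at 1 week and 0.119 (1 read) and 2612 on DMBA. Its log2 difference was thus -2.49 without on-DMBA replicate 1, 9.56 without replicate 2, where limma called it higher, and 3.53 with all libraries.

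**Figure D5:**
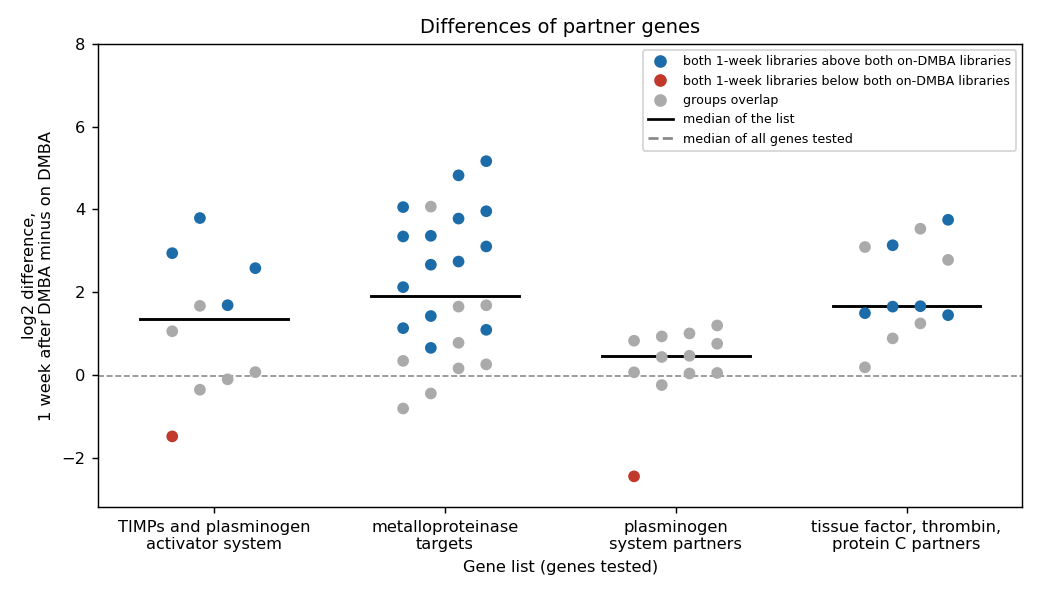
Log2 difference, 1 week after DMBA minus on DMBA, of each gene tested in the 4 lists, with list medians (black lines) and the median of all genes (dashed). The metalloproteinases have the highest median, 1.90, and the plasminogen system partners the lowest, 0.45.

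Reck also acts with Gpr124 as a co-receptor for Wnt7 ligands, so these genes were listed with it. Gpr124 was at 185 and 175 at 1 week and 1.42 and 104 on DMBA, with on-DMBA replicate 1 lowest, as for Reck. Wnt7b was at 10.9 and 4.71 at 1 week and 15.2 and 7.90 on DMBA, and Wnt7a was at 3.59 and 0.856 at 1 week and 1.31 and 0.538 on DMBA, both with groups that overlapped. None of the 3 passed in limma.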

How the data were processed

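The authors deposited 1 table of normalised signal per gene symbol, called CPM. Tools listed without roles in the submitters' processing notes are TopHat2 2.1, HTSeq, CASAVA 1.8.2 and edgeR 3.2.3, with the mm9 build. The kit was stranded, per the labels' protocols. The deposited signal is a read count over a scaled library size, named scaled CPM here, since its columns sum to 867697 to 1149290 and not to 1 common total. Dividing each library by its smallest value above 0 (0.119 to 0.179) gave whole reads for 100% of values, within 0.01 reads. The plan had assumed plain CPM, and its test on the log scale stands.

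The 15419 genes that reached 1 scaled CPM in 2 libraries entered limma 3.58.1 (R 4.3.3; lmFit, eBayes with a trend) as log2(scaled CPM + 0.5). Tests were two-sided and p-values were adjusted by Benjamini-Hochberg over all of them. Log2 differences are on this scale and understate those of low genes. Ratios given as times a mean or value are plain ratios of scaled CPM, and that of Timp4 is one of pooled reads. Replicates are separate mice, by their labels. A floor of 3 reads is 0.356 to 0.538 scaled CPM, and it and the counting intervals cover counting error only.

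The members and lists were chosen with earlier results of these data known. Named were all 10 members, from each partner list the 4 genes of smallest p and a fixed set of partners, and the 3 genes closest to each of the 3 members of widest range. A planned partner gene and a planned ratio are not reported here. Plgrkt was matched as 5033414D02Rik, and Eno1 can share reads with near-identical copies, so neither is given a value. All 10 symbols matched the RefSeq gene table. Coding and exon lengths came from GENCODE M21 (GRCm38), in place of the planned RefSeq proteins, and exon length was added after seeing the data. Promoter letters were searched in the 250 bases before the start only. Alternatives were pseudocounts of 0.1 and 1, no filter or one of 5, quantile normalization, median ratio scaling, robust eBayes, eBayes without trend, a replicate block, leaving out each library, recovered reads in edgeR 4.0.16 (quasi-likelihood) and in DESeq2 1.42.0, and, chosen after seeing the data, edgeR without on-DMBA replicate 1. Where this left 1 library in a group, its spread came from the other group, drawn by limma and edgeR towards that of all genes. The adjusted p-values of such runs thus do not measure the spread in the group of 1 library. The tests were tested on simulated data.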

Additional observations from a re-analysis of the deposited data

How the results depend on the processing

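With 2 mice a group, calls turned on the on-DMBA libraries, and the counts of all genes given here are out of 15419 tested. Leaving out each library in turn gave 0 to 2212 genes called higher and 0 to 1549 lower in limma, with 0 to 5 of the 10 members, 0 to 19 metalloproteinases, 0 to 5 plasminogen partners and 0 to 10 tissue factor partners. The 5 members, Timp1, Timp2, Reck, Plaur and Plat, were called without on-DMBA replicate 2. DESeq2 called 16 genes higher and 3 lower, of which 1 was a metalloproteinase. Without on-DMBA replicate 1, edgeR called 462 higher and 389 lower, with 2 members, 6 metalloproteinases, 2 plasminogen partners and 5 tissue factor partners, while limma called 362 and 154. The causes were not tested.

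Replicate numbers mark different mice, and the differences of replicate 1 minus replicate 2 in the groups correlated at 0.015 across genes. With a replicate block limma called 285 of the 15419 genes tested higher and 3 lower. Among them were 8 metalloproteinases, 2 tissue factor partners and 2 members, Timp1 (limma adjusted p = 0.0473) and Plat (limma adjusted p = 0.00454). The block pairs mice that share no more than a number. It put the standard error of Plat at 0.909 and that of F3 at 0.904, against 2.20 and 0.53 without the block. These p-values thus do not measure the spread of the gene between mice.

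Leaving out each library in turn, the log2 difference turned for Timp2 (-0.15 to 3.49), Reck (-0.43 to 2.54), Timp3 (-1.53 to 0.81), Plau (-0.51 to 0.30) and F3 (-0.14 to 0.27). With on-DMBA replicate 1 left out edgeR put Timp2 at -0.23 and Reck at -0.54. Quantile normalization put Plau at 0.044 and the median of all genes at -0.15, against -0.024. The Timp4 difference ranged from 0.93 (quantile normalization) to 2.63 (DESeq2), and its reads limit it. Under a filter of 5 scaled CPM Timp4 was not tested. The Thbd difference was -1.03 to -1.94 with a library left out. The Timp1 to Mmp9 ratio differed by -0.54 to -3.91 with a library left out, and the F3 to Tfpi ratio, -3.02, was 0.43 without on-DMBA replicate 1.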
